A study of Mus musculus with 8 samples.

Results

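MHC class II presentation genes were followed in mouse embryonic fibroblasts (MEFs) of 2 lines, one without Keap1 (Keap1 null) and one wild type (WT), grown as tumours and in dishes. The 10 genes listed were H2-Aa, H2-Ab1, H2-Eb1, H2-DMa, H2-DMb1, H2-Oa, H2-Ob, Cd74, Ciita and Flt3, and their probes were found by gene name. Of these 10, 9 had a probe with a matched gene name among 18217 genes on the array, and 8 were bright enough to be tested among 22922 targets. H2-Eb1 had no matched probe and is given only by its promoter, and H2-Ob was well above background on no array.

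RNA was measured on 8 one-colour arrays, 2 for each of 4 groups: Keap1 null allografts, WT allografts, Keap1 null dishes and WT dishes. Allografts are tumours grown in nude mice (nu/nu) after injection of 3000000 Keap1 null or 10000000 WT cells and collected at 100 to 150 mm3. TR stands in the name of both lines, and its meaning is not given in the sources used here. Neither are the ages of the mice or the way in which Keap1 was removed. Each genotype is represented by 1 line, so genotype and line cannot be told apart. In allografts the number of cells injected also differed with genotype, and cannot be told apart from it. Nude mice lack a thymus and most T cells but keep macrophages, dendritic cells and B cells, and an allograft sample holds RNA of the injected cells and of the host together. In such bulk samples, fewer cells of a type and less RNA per cell cannot be told apart.

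MHC class II molecules are pairs of an alpha and a beta chain that carry peptides of ingested proteins to the surface of dendritic cells, B cells and macrophages, where CD4+ T cells read them. The invariant chain Cd74 escorts new pairs to the endosome, H2-DM exchanges the remnant of Cd74 for peptide, and H2-O restrains H2-DM. Ciita is the coactivator that switches the family on, either constantly in antigen-presenting cells or after interferon gamma in many other cells, fibroblasts among them. It binds no DNA itself and is held by factors that sit on the X and Y boxes of the class II promoters. Flt3 is not a presentation gene: it is the receptor through which Flt3 ligand drives the formation of dendritic cells, and it is also made by early blood progenitors.

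Several of the genes share a pair of boxes in the promoter. Promoter windows of 300 bases (250 before to 50 after the annotated start, from RefSeq, build GRCm38.p6) were searched for the letters GNAAC, taken as the core of an X box, followed 25 to 40 bases after its start by the Y box letters ATTGG, both on the strand of the gene. The pattern GNAAC was chosen after the windows of these genes had been read. Of the 10 genes, H2-Aa, H2-Eb1, H2-DMb1, H2-Oa and H2-Ob held 1 such pair each, and the 5 stretches are printed because this order of boxes is what the factors that hold Ciita are known to read. Capitals mark GNAAC and ATTGG.
H2-Aa: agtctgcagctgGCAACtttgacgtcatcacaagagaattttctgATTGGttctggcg
H2-Eb1: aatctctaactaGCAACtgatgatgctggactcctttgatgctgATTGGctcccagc
H2-DMb1: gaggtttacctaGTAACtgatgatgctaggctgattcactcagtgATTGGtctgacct
H2-Oa: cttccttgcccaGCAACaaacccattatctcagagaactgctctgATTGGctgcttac
H2-Ob: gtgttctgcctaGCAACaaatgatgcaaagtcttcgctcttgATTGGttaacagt

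The H2-Aa stretch lies at chr17:34287859-34287916 on the minus strand. On the plus strand lie those of H2-Eb1 (chr17:34305764-34305820), H2-DMb1 (chr17:34153085-34153142), H2-Oa (chr17:34092291-34092348) and H2-Ob (chr17:34238806-34238860). The distance between the starts of the boxes was 33 bases in H2-Aa, H2-DMb1 and H2-Oa, 32 in H2-Eb1 and 30 in H2-Ob. The pair was held on the gene's strand by 1.33% of 32851 promoters in the table, whereas GNAAC alone stood on either strand in 84.85% and ATTGG alone in 37.41%. The windows of H2-DMa (2 annotated starts) and Flt3 did not hold the pair. The promoters of H2-Ab1, Cd74 and Ciita were not analysed here. With the longer core AGNNACNG in place of GNAAC, the pair was held by 0.37% of promoters and, of the 5 genes, by H2-Eb1 and H2-DMb1 alone. Because GNAAC was fitted to these windows, its share over all promoters is background and no test of the 5 genes. The matches describe letters only and say nothing of binding.

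The targeted gene was read first. Keap1, the adaptor that hands the transcription factor NRF2 to degradation, had log2 levels (each the log2 intensity minus the 75th percentile of its array) of 1.00 and 0.92 in Keap1 null allografts and 2.85 and 2.46 in WT allografts. Its levels were 2.37 and 2.22 in Keap1 null dishes against 3.32 and 2.99 in WT dishes. Keap1 was lower in the Keap1 null samples in both settings (3.23-fold, limma adjusted p = 0.000722 in allografts, and 1.82-fold, adjusted p = 0.0197 in dishes). The probe was well above background on all 8 arrays, and whether it lies in the deleted stretch is not given. Nfe2l2, which encodes NRF2, had 4.09 and 4.12 in Keap1 null allografts, 3.44 and 3.56 in WT allografts, 3.64 and 3.52 in Keap1 null dishes, and 3.44 and 3.59 in WT dishes. Per array, 60.57% to 74.74% of probes were well above background, and no spot was saturated. The 10 fibroblast markers were all above background in Keap1 null dishes and 9 of them in WT dishes. Their levels in culture were nonetheless unequal between the lines. By limma's call, Keap1 null dishes exceeded WT dishes for 7 of the 10 and fell short for 1, Col1a1, while 2 were not called. The median log2 difference of the 10 was 2.59, beside -0.05 over all targets.

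These limits hold for every comparison below. The labels do not say whether replicates are separate cultures or animals, so p-values measure only the spread between these arrays, which may be technical. Each slide held 1 array of every group, but a group sat at the same position on both slides, so position and group cannot be told apart. A gene well above background on both arrays of 1 group alone was tested through that group, which largely set its direction. Between the lines in allografts this held for H2-Oa, H2-DMb2, Irf4, Tnfsf4, Siglech, Cx3cr1 and Ms4a1 (through WT) and for Camp (through Keap1 null). Their p-values and places in counts are no support for that direction.

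In allografts, 7 of the 8 tested genes were lower in the Keap1 null than in the WT and 1, Flt3, was higher. Over all targets 21.3% were called lower and 20.5% higher in this comparison. The median log2 difference of the 8 was -2.44, beside 0.00 over all targets, and was -2.47 on slide 1 and -2.40 on slide 2. For each of the 8 genes the 2 Keap1 null arrays lay entirely on one side of the 2 WT arrays, which held downward for 34.5% and upward for 35.7% of all targets. The falls ran from 2.61-fold for H2-Oa to 10-fold for H2-DMb1. H2-Oa was tested only through the WT allografts, so its place among the 7 lower genes was set largely by the filter.

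Among the classical chains, H2-Aa encodes the alpha chain and H2-Ab1 the beta chain of the H2-A (I-A) molecule. Log2 levels of H2-Aa were -2.90 and -2.81 in Keap1 null allografts and -0.13 and -0.24 in WT allografts. In dishes they were -8.98 and -8.98 in Keap1 null and -8.68 and -7.97 in WT, none of them well above background. H2-Aa was thus high in WT allografts, lower in Keap1 null allografts without overlap, and at background in culture. It was 6.33-fold lower in the Keap1 null than in the WT allografts (log2 difference -2.66 ± 0.22 SE, limma adjusted p = 0.000327). H2-Ab1 had 0.00 and 0.08 in Keap1 null allografts, 2.50 and 2.58 in WT allografts, -7.34 and -7.24 in Keap1 null dishes, and -7.44 and -6.96 in WT dishes. Its order of groups was that of H2-Aa, with all 4 dish arrays again at background. The difference between the tumours was 5.66-fold (-2.50 ± 0.17, adjusted p = 0.000135). Each of the 3 H2-Ab1 probes gave a fall of 2.50 to 2.51 on the log2 scale, and the dimmer H2-Aa probe one of 2.95.

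Cd74 encodes the invariant chain, which fills the groove of new class II pairs until they reach the endosome. Levels of Cd74 were -0.39 and 0.05 in Keap1 null allografts, 2.05 and 2.34 in WT allografts, -3.85 and -3.66 in Keap1 null dishes, and -4.87 and -4.31 in WT dishes. Unlike the classical chains, Cd74 was well above background on all 8 arrays. It was 5.16-fold lower in the Keap1 null than in the WT allografts (-2.37 ± 0.24, adjusted p = 0.000723). In dishes the 2 Keap1 null arrays lay above the 2 WT arrays, by 0.83 ± 0.24, which missed the threshold (adjusted p = 0.0629). With the replicate number as a block, which here is the slide, the same dish difference was called (adjusted p = 0.00725), and it was also called without WT dish replicate 2 (1.11, adjusted p = 0.0478).

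**Figure D1:**
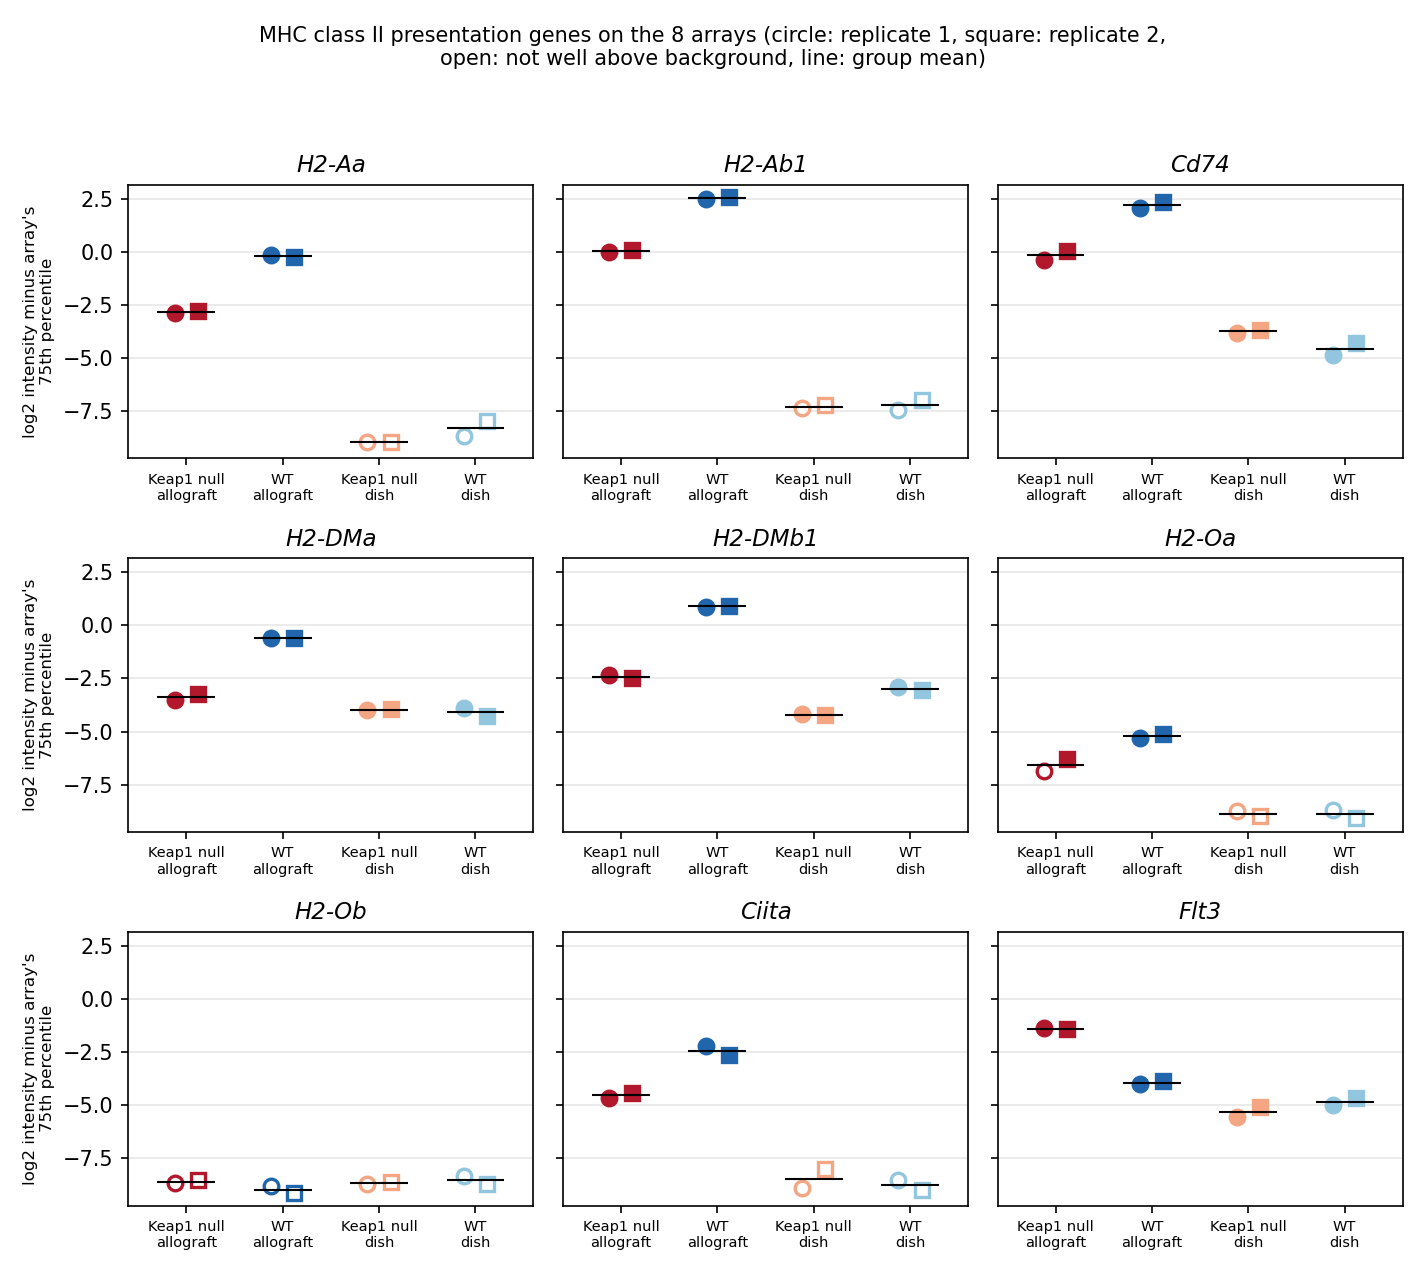
Log2 intensity minus the array's 75th percentile (vertical axis) of the 9 class II genes with a probe, in the 4 groups, with replicate 1 as a circle, replicate 2 as a square, the group mean as a line and open symbols where a probe was not well above background. In allografts Keap1 null lies below WT for 7 genes and above it for Flt3, while H2-Ob stays at background on all 8 arrays.

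The peptide exchange factor H2-DM is a pair of H2-DMa and H2-DMb1. For H2-DMa, levels were -3.49 and -3.23 in Keap1 null allografts, -0.59 and -0.60 in WT allografts, -4.01 and -3.93 in Keap1 null dishes, and -3.91 and -4.25 in WT dishes. Only the WT allografts stood clearly apart. The fall in Keap1 null against WT allografts was 6.8-fold (-2.77 ± 0.15, adjusted p = 6.76e-05). H2-DMb1 had -2.35 and -2.48 in Keap1 null allografts, 0.89 and 0.93 in WT allografts, -4.19 and -4.21 in Keap1 null dishes, and -2.90 and -3.06 in WT dishes. It fell by the most among the 8 genes, 10-fold in Keap1 null against WT allografts (-3.32 ± 0.10, adjusted p = 1.34e-05). A second, dimmer H2-DMb1 probe was 7.97-fold lower. The H2-O chain H2-Oa, part of the inhibitor of H2-DM, was dim: -6.86 and -6.31 in Keap1 null allografts, -5.30 and -5.11 in WT allografts, -8.74 and -8.98 in Keap1 null dishes, and -8.71 and -9.08 in WT dishes. Its probe was well above background on both WT allograft arrays and on 1 of 2 Keap1 null allograft arrays, and on no dish array. It was 2.61-fold lower in the Keap1 null than in the WT allografts (-1.38 ± 0.23, adjusted p = 0.00463). This call ended when the background was modelled by normexp (-0.29, adjusted p = 0.177). H2-Oa was tested only because both WT allograft arrays measured it, so the direction of this difference was set largely by the filter. Its partner H2-Ob had processed intensities of 2.74 to 3.56 over the 8 arrays, none well above background.

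Ciita, the switch of the family, had -4.65 and -4.41 in Keap1 null allografts, -2.22 and -2.64 in WT allografts, -8.89 and -8.03 in Keap1 null dishes, and -8.53 and -8.98 in WT dishes. Its dish signals were not well above background in either line. Ciita was 4.28-fold lower in the Keap1 null than in the WT allografts (-2.10 ± 0.33, adjusted p = 0.00381), without overlap.

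Flt3 was the exception. It had -1.37 and -1.41 in Keap1 null allografts, -4.01 and -3.88 in WT allografts, -5.55 and -5.08 in Keap1 null dishes, and -5.01 and -4.67 in WT dishes. All 8 arrays were well above background, and the Keap1 null allografts alone stood high. Flt3 was 5.88-fold higher in the Keap1 null than in the WT allografts (2.56 ± 0.19, adjusted p = 0.000209). In dishes the Keap1 null arrays lay below the WT arrays by -0.48 ± 0.19, which was not called (adjusted p = 0.146). The difference was called with quantile normalization (-0.64, adjusted p = 0.0288) and with the median of each array as the scale (-0.63, adjusted p = 0.0364).

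In dishes, only H2-DMb1 of the 8 genes was called between the lines. Over all targets 9.78% were lower and 11.4% higher in the Keap1 null than in the WT dishes. H2-DMb1 was 2.33-fold lower in Keap1 null dishes (-1.22 ± 0.10, adjusted p = 0.00069), and its second probe was 2.9-fold lower. H2-DMa, with which it pairs, differed by 0.11 (adjusted p = 0.71). The median of the 8 genes was -0.03, beside -0.05 over all targets, and was -0.21 on slide 1 and -0.09 on slide 2. For H2-Aa, H2-Ab1, H2-Oa and Ciita neither line was well above background in dishes, so no difference was detectable there. The H2-Aa values nonetheless differed by -0.66 (adjusted p = 0.0967), and by -1.01 without WT dish replicate 1 (adjusted p = 0.00876) and -0.82 with the array median as the scale (adjusted p = 0.0321), between signals that stayed at background.

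Set against dishes, the 4 genes measured on both sides, Cd74, H2-DMa, H2-DMb1 and Flt3, were higher in allografts in both lines. Over all targets 35.8% were higher in Keap1 null and 35.8% in WT. H2-Aa, H2-Ab1, H2-Oa and Ciita were tested only because the allograft arrays measured them, so their direction was set by the filter, and their folds are lower bounds against the faintest signal called above background. In Keap1 null these bounds were at least 14.5-fold for H2-Aa, 107-fold for H2-Ab1, 1.09-fold for H2-Oa and 4.53-fold for Ciita, of which that of H2-Oa was not called with normexp (adjusted p = 0.138). In WT they were at least 88.7-fold for H2-Aa, 587-fold for H2-Ab1, 2.75-fold for H2-Oa and 18.8-fold for Ciita.

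The 4 genes measured on both sides were above background on all 8 arrays. Cd74 was 12-fold higher in allografts than in dishes of Keap1 null (adjusted p = 6.89e-05) and 110-fold higher in WT (adjusted p = 6.24e-06). H2-DMb1 was 3.44-fold higher in Keap1 null (adjusted p = 3.46e-05) and 14.8-fold higher in WT (adjusted p = 2.26e-06). H2-DMa was 11.2-fold higher in WT allografts (adjusted p = 1.15e-05). In Keap1 null its rise was 1.53-fold (adjusted p = 0.0126), and this value turned to -0.22 with quantile normalization and to -0.26 with the median of each array as the scale. The call also ended with normexp (adjusted p = 0.0525), without Keap1 null allograft replicate 2 (adjusted p = 0.0608) and without Keap1 null dish replicate 1 (adjusted p = 0.065). Flt3 was 15.2-fold higher in Keap1 null allografts than in dishes (3.93 ± 0.19, adjusted p = 2.13e-05). In WT its rise was 1.86-fold (0.90 ± 0.19, adjusted p = 0.00677) and turned to -0.15 and -0.13 under the same 2 scalings.

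**Figure D2:**
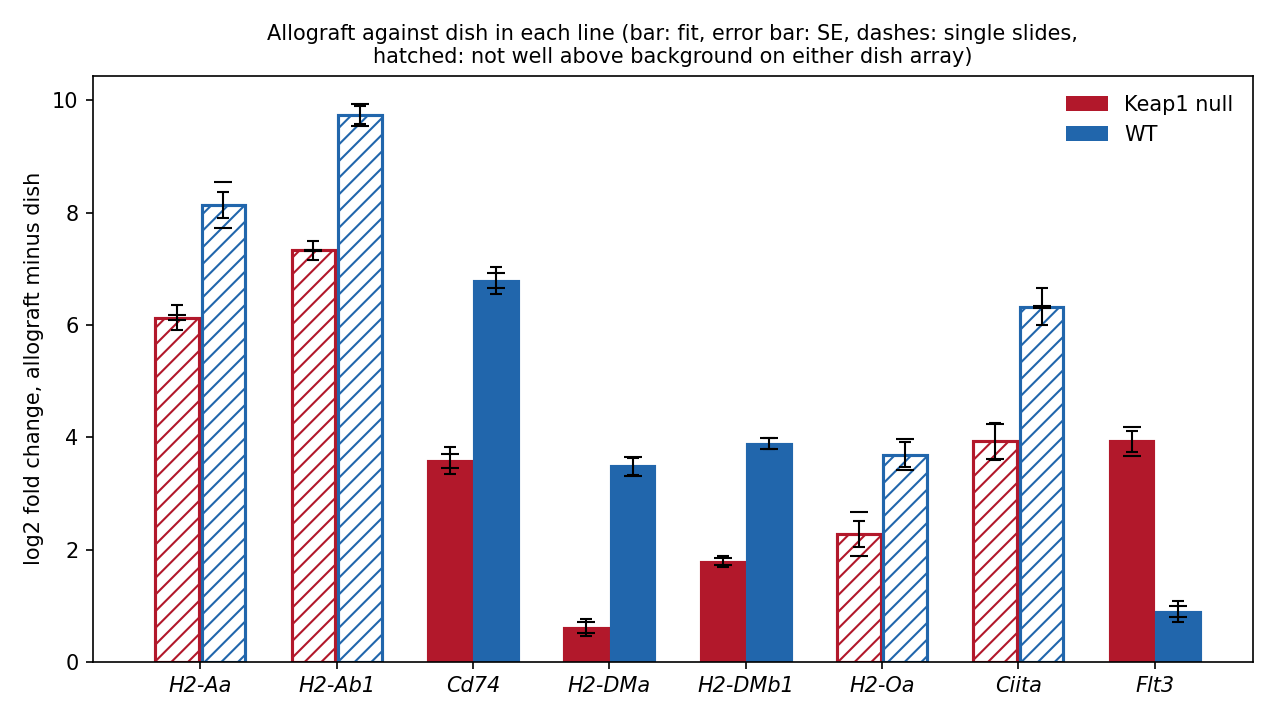
Log2 difference between allograft and dish (vertical axis, with its standard error) of the 8 tested genes in Keap1 null (red) and in WT (blue), with dashes for single slides and hatching where no dish array was well above background. The bar of WT is the taller for 7 genes, by 3.20 for Cd74, and that of Keap1 null for Flt3.

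The interaction asked whether the allograft minus dish difference was itself unequal in the 2 lines, as Keap1 null minus WT. It was called for all 8 genes, 7 lower and 1 higher, where 17% of all targets were lower and 15.8% higher. Cd74 had the largest negative value (-3.20 ± 0.34 SE, limma adjusted p = 0.00131), and H2-DMa followed (-2.87 ± 0.21, adjusted p = 0.000376). Flt3 had 3.03 ± 0.27 in the opposite direction (adjusted p = 0.000683). For H2-Aa, H2-Ab1, H2-Oa and Ciita the dish terms are background signals. H2-Oa was tested only through the WT allografts, so its place among the 7 lower genes was set largely by the filter. The H2-Oa call (-1.41, adjusted p = 0.0203) ended with normexp (-0.18, adjusted p = 0.576) and without WT allograft replicate 2, Keap1 null dish replicate 1 or WT dish replicate 2 (-1.32, -1.29 and -1.23, adjusted p = 0.068, 0.0684 and 0.0596).

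Across the 8 arrays, the 7 genes other than Flt3 moved closely together, with Pearson's r between 0.84 and 1.00 over their 21 pairs. Flt3 had r between 0.16 and 0.66 with them. These values describe 8 arrays that share the contrast between allograft and dish. H2-Aa, H2-Ab1, H2-Oa and Ciita were at background in every dish and were tested only through allografts. High r among them was therefore largely set in advance and is no support for a shared pattern. The 5 genes nearest in pattern to the mean of H2-Aa, H2-Ab1 and Cd74, by the root mean square difference of mean-centred log2 levels among 14857 genes, were Cd300c2 (0.17), Nxpe5 (0.25), Hcls1 (0.25), Ms4a4d (0.25) and Fcgr2b (0.27). Fcgr2b encodes an inhibitory receptor for IgG, and Hcls1 a cytoskeletal protein of blood cells. Each of these 5 had r of at least 0.998 with the profile, but genes picked for nearness to a profile have high r by choice. Nearest to Flt3 were Plekha6 (0.15), Dnmt3l (0.24), Fcer1a (0.30), Tdpoz1 (0.31) and Mrgprf (0.33), with r between 0.977 and 0.997. Fcer1a encodes the alpha chain of the high-affinity IgE receptor of mast cells and basophils, and Dnmt3l a cofactor of DNA methylation in germ cells.

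**Figure D3:**
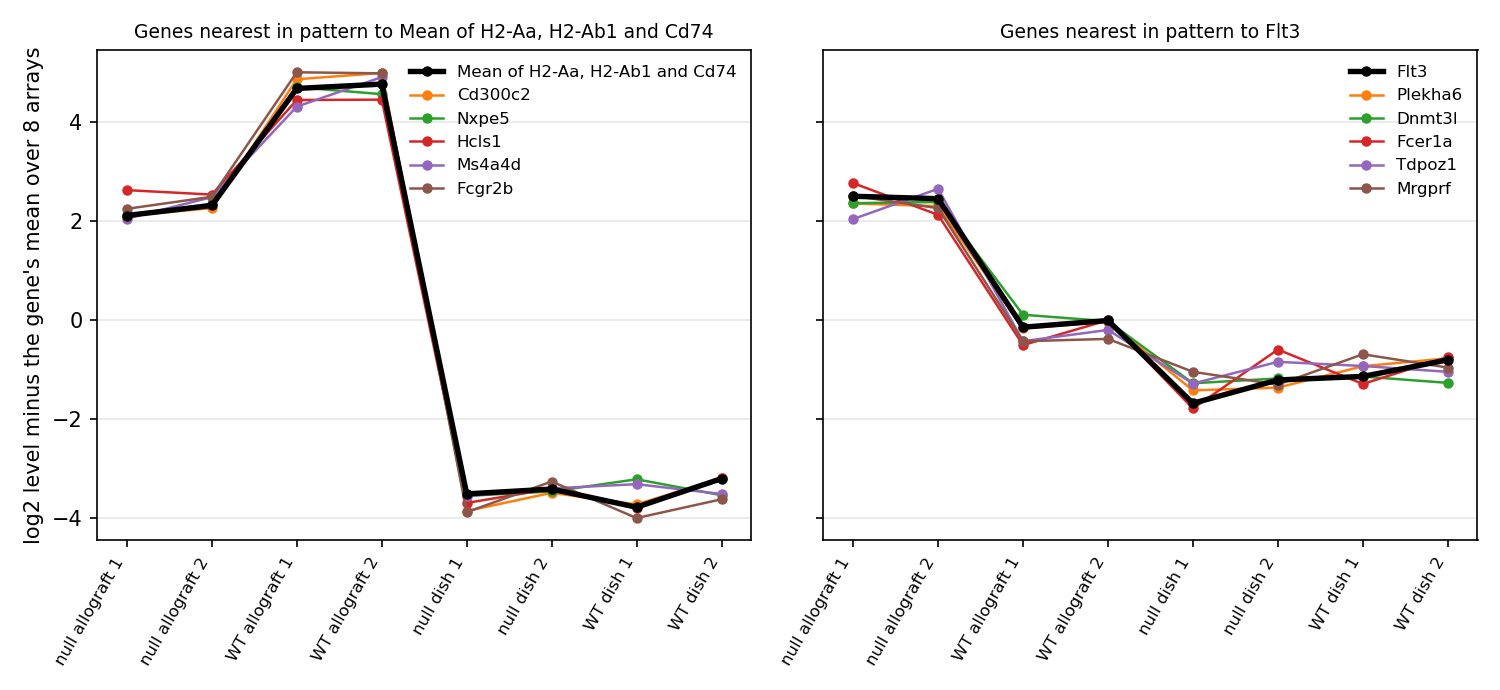
Log2 level minus the gene's own mean over the 8 arrays (vertical axis) for each array (horizontal axis), with the class II profile and its 5 nearest genes on the left and Flt3 with its 5 nearest genes on the right. The class II profile lies at 2.12 and 2.32 in Keap1 null allografts, at 4.69 and 4.77 in WT allografts and below -3 in every dish, whereas Flt3 is high in Keap1 null allografts alone.

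Class II transcription needs the factors that Ciita joins at the X and Y boxes: the RFX complex, CREB and NF-Y. Of the 7 such genes, 1 was higher and 2 were lower in the Keap1 null than in the WT allografts, with a median of -0.14. Beside this and each list count below stand the shares over all targets in allografts, 20.5% higher and 21.3% lower. Rfx5, the DNA-binding subunit of RFX, was 1.5-fold lower (adjusted p = 0.00678), a call that ended with normexp (adjusted p = 0.141) and with the mean of its probes (adjusted p = 0.112), and Rfxap 1.29-fold lower (adjusted p = 0.0398). Creb1 was 1.4-fold higher (adjusted p = 0.047). The Rfxap and Creb1 calls were lost when any of several arrays was left out, with adjusted p of 0.153 for Rfxap without WT allograft replicate 1 and 0.19 for Creb1 without WT allograft replicate 2. All 7 were well above background on all 8 arrays, including the dishes in which Ciita was not. In dishes Rfx5 was 1.35-fold higher and Nfyb 1.41-fold lower in Keap1 null (adjusted p = 0.0381 and 0.0475).

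Several of 10 tested genes between interferon gamma and Ciita were lower in the Keap1 null than in the WT allografts, while 5 were not called. The median of the 10 was -0.31. Irf1, an interferon-induced transcription factor that acts on Ciita, was 2.63-fold lower there (adjusted p = 0.000176), while in dishes it was 1.31-fold higher in Keap1 null (adjusted p = 0.0404). Ifngr2, the second chain of the receptor, was 1.56-fold lower in Keap1 null allografts (adjusted p = 0.00525), which ended with the mean of its probes (adjusted p = 0.08). Smaller falls were called for Usf1 (1.32-fold, adjusted p = 0.0305) and Jak2 (1.3-fold, adjusted p = 0.0418). The Usf1 call ended with the array median as the scale (adjusted p = 0.0777), with normexp (0.0687) and without the filter on dim probes (0.0595). It also ended with only the allograft arrays in the fit (0.0672) and when any single allograft array was left out (log2 differences of -0.34 to -0.45). Jak2 was not recomputed under the alternatives. The cytokine gene Ifng was dim, at -6.14 and -6.47 in Keap1 null and -6.54 and -5.76 in WT allografts, and the arrays overlapped (-0.15, adjusted p = 0.717).

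Regulators of myeloid and dendritic cells split. Of 5 genes, 3 were lower and 2 higher in the Keap1 null than in the WT allografts. Irf8, a factor that dendritic cells and monocytes need and that also acts on Ciita, had -1.08 and -1.01 in Keap1 null allografts, 1.74 and 1.74 in WT allografts, -7.67 and -7.21 in Keap1 null dishes, and -3.74 and -3.89 in WT dishes. It was 6.88-fold lower in Keap1 null allografts (adjusted p = 9.04e-05). In dishes it was above background in WT only, and at least 7.43-fold lower in Keap1 null (adjusted p = 9.31e-05). Spi1, the master factor of myeloid cells, was 2.49-fold lower in Keap1 null allografts (adjusted p = 0.00249), and Irf4 at least 1.35-fold lower (adjusted p = 0.0176). Without WT allograft replicate 1 or 2 the Irf4 call ended (adjusted p = 0.0766 and 0.0682), and with normexp the difference was -0.13 (adjusted p = 0.63). Id2 was 2.25-fold higher in the Keap1 null allografts (adjusted p = 0.00244), and in dishes 2.22-fold higher (adjusted p = 0.00553).

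The lysosomal list holds proteases that cut Cd74 and antigens, the reductase Ifi30 and the membrane proteins Lamp1 and Lamp2. Of its 9 genes, 4 were lower and 4 higher in the Keap1 null than in the WT allografts, beside 21.3% and 20.5% of all targets. Ctss encodes cathepsin S, which performs the late cuts of Cd74 in antigen-presenting cells. It had 3.77 and 3.80 in Keap1 null allografts against 5.71 and 5.94 in WT allografts, and was not well above background in any dish. It was 4.12-fold lower in Keap1 null allografts (adjusted p = 0.0046). Ctsh was 3.19-fold lower (adjusted p = 0.000129), Lgmn 2.17-fold lower (adjusted p = 0.000345) and Ifi30, which reduces disulphide bonds of antigens, 1.87-fold lower (adjusted p = 0.00104). The 4 higher genes were the membrane proteins Lamp2 and Lamp1 (1.58-fold and 1.23-fold) and the proteases Ctsl and Ctsb. Ctsl, whose product takes the part of cathepsin S in cortical thymic epithelium, was 1.4-fold higher (adjusted p = 0.00953), and Ctsb 1.29-fold higher (adjusted p = 0.0327).

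Surface partners of class II largely followed it. Of 7 costimulation genes, 6 were lower in the Keap1 null than in the WT allografts and 1 was higher, with a median of -1.75. Tnfsf4, the OX40 ligand, was at least 2.83-fold lower (adjusted p = 2.59e-05). It was tested only through the WT allografts, which set its direction. Cd80 was 5.28-fold lower (adjusted p = 4.45e-05), and in dishes 2.04-fold lower (adjusted p = 0.00225). Cd40 was 3.37-fold lower in the Keap1 null allografts (adjusted p = 0.000448). Cd86 was 3.48-fold lower (adjusted p = 0.0228), a call that ended without any single one of the 4 allograft arrays (adjusted p from 0.0741 to 0.0931). The gene that was higher was Pdcd1lg2, the ligand PD-L2 (2.76-fold, adjusted p = 0.0372). Cd83, which protects surface class II from ubiquitin-driven removal, was 8.26-fold lower (adjusted p = 9e-04), and Marchf8, a ligase able to mark class II for removal, 1.43-fold lower (adjusted p = 0.0079). These were 2 of 3 tested genes of surface turnover. The only further class II chain tested, H2-DMb2, was at least 2.21-fold lower in Keap1 null allografts (adjusted p = 0.0068), and normexp ended the call (-0.19, adjusted p = 0.347).

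On the T cell side limma called none of the 4 tested genes in allografts, and 1 of them, Lag3, had an unadjusted p below 0.05 (0.0485). Cd3e, a chain of the T cell receptor complex, had -4.50 and -3.86 in Keap1 null and -4.93 and -4.17 in WT allografts (0.37, adjusted p = 0.499, and 0.0221 with the replicate number as a block, each Keap1 null array being above the WT array of its slide). Without WT allograft replicate 1 the difference was -0.02. The same probe read -4.13 and -3.62 in Keap1 null dishes and -4.19 and -3.57 in WT dishes, a range that overlaps the allograft values. Lag3, a class II receptor of activated lymphocytes, was higher by 0.60 without a call (adjusted p = 0.0981), and the call was made with the block (adjusted p = 0.0452), with normexp (adjusted p = 0.0216) and without either Keap1 null dish array (adjusted p = 0.0248).

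The ligand of Flt3 went the other way from its receptor. Flt3l had -1.73 and -1.66 in Keap1 null allografts, -0.45 and -0.33 in WT allografts, -2.40 and -2.40 in Keap1 null dishes, and -1.74 and -1.79 in WT dishes. In both settings Keap1 null lay below WT without overlap. Flt3l was 2.47-fold lower in the Keap1 null than in the WT allografts (adjusted p = 0.000146) and 1.55-fold lower in dishes (adjusted p = 0.00519). Of the 6 tested genes of this ligand group, 4 were lower and 1 higher in allografts, with a median of -1.05. Csf2ra, a chain of the GM-CSF receptor, was 2.49-fold lower (adjusted p = 0.000762) and Csf2, which encodes GM-CSF, 2.12-fold lower (adjusted p = 0.00314, and 0.465 with normexp). The exception was Kitl, the ligand of the related receptor Kit, which was 3.79-fold higher (adjusted p = 0.000102). In dishes Csf2ra was instead 3.37-fold higher in Keap1 null (adjusted p = 0.000579). Csf2 was 2.19-fold lower there (adjusted p = 0.00558) and Kitl 1.38-fold higher (adjusted p = 0.0411).

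Markers of macrophages and of leukocytes in general moved with these genes. Summed levels, as multiples of the array's 75th percentile, were 16.43 and 17.04 for the 13 tested macrophage markers in Keap1 null allografts, against 88.3 and 101.4 in WT allografts, and 0.61 to 0.87 in dishes. For the 8 class II genes themselves they were 2.62 and 2.95 in Keap1 null allografts, 13.5 and 14.7 in WT allografts, and 0.22 to 0.28 in dishes. Both sums were lower in the Keap1 null than in the WT tumours without overlap, and lowest in culture. Of the 13 macrophage markers 12 were called lower in the Keap1 null than in the WT allografts and none was called higher, with a median of -2.65. The marker without a call, Cd163, went the other way, with 0.46 and 0.47 in Keap1 null and 0.13 and -0.06 in WT allografts. Adgre1, which encodes F4/80, was 10.4-fold lower (adjusted p = 5.67e-05), and Cx3cr1, the fractalkine receptor, at least 99.9-fold lower (adjusted p = 2.45e-05). Cx3cr1 was tested only through the WT allografts, which set its direction. Of 5 general leukocyte markers 4 were lower, with Ptprc, which encodes CD45, 3.96-fold lower (adjusted p = 1e-04). Ptprc, Adgre1, Spi1 and Ctss were well above background on no dish array. By contrast, 4 of the 13 macrophage markers and 2 of the 5 leukocyte markers were well above background on all 8 arrays, dishes included. Csf1r, C1qb, Mrc1 and Mertk were the macrophage markers, and Coro1a and Cd53 the leukocyte markers. In Keap1 null, Mertk was lower in allografts (-2.21 and -2.24) than in dishes (-0.48 and -0.55). The other 12 macrophage markers were called higher in Keap1 null allografts than in dishes, beside 35.8% of all targets. The part of the markers' shift in the class II differences was not tested.

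Dendritic cell markers did not move as one. Of 8 tested, 4 were lower in the Keap1 null than in the WT allografts and 1 was higher, with a median of -0.63. Their sum was 1.70 and 2.29 in Keap1 null and 2.88 and 2.43 in WT allografts. The sum rested largely on Clec10a, the brightest of the 8 on every allograft array. Clec10a had -0.02 and 0.67 in Keap1 null and 0.83 and 0.26 in WT allografts, which overlapped (limma adjusted p = 0.789). Itgax, which encodes CD11c, was 3.22-fold lower (adjusted p = 0.000273), Ccr7, the receptor for migration to lymph nodes, 4.75-fold lower (adjusted p = 0.000436), and Siglech, a plasmacytoid marker, was above background in WT allografts only (adjusted p = 0.000205, and 0.652 with normexp). Zbtb46, a factor that marks classical dendritic cells, had -4.34 and -4.40 in Keap1 null and -4.64 and -4.23 in WT allografts (0.07, adjusted p = 0.809). Xcr1, the receptor of cross-presenting dendritic cells, differed by -0.03 (adjusted p = 0.959), but its probe read -4.33 and -3.56 in Keap1 null allografts, -4.24 and -3.59 in WT allografts, -4.03 and -3.57 in Keap1 null dishes and -4.19 and -3.68 in WT dishes. The dish values overlap those of the tumours. The 1 gene of the list that was higher was Fcer1a (6.51-fold, adjusted p = 0.00528), which is better known from mast cells and basophils. It had -1.80 and -2.44 in Keap1 null and -5.07 and -4.57 in WT allografts, and it was also among the 5 genes nearest to Flt3 in pattern. Whether the Flt3 signal comes with any of these cell types was not tested.

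**Figure D4:**
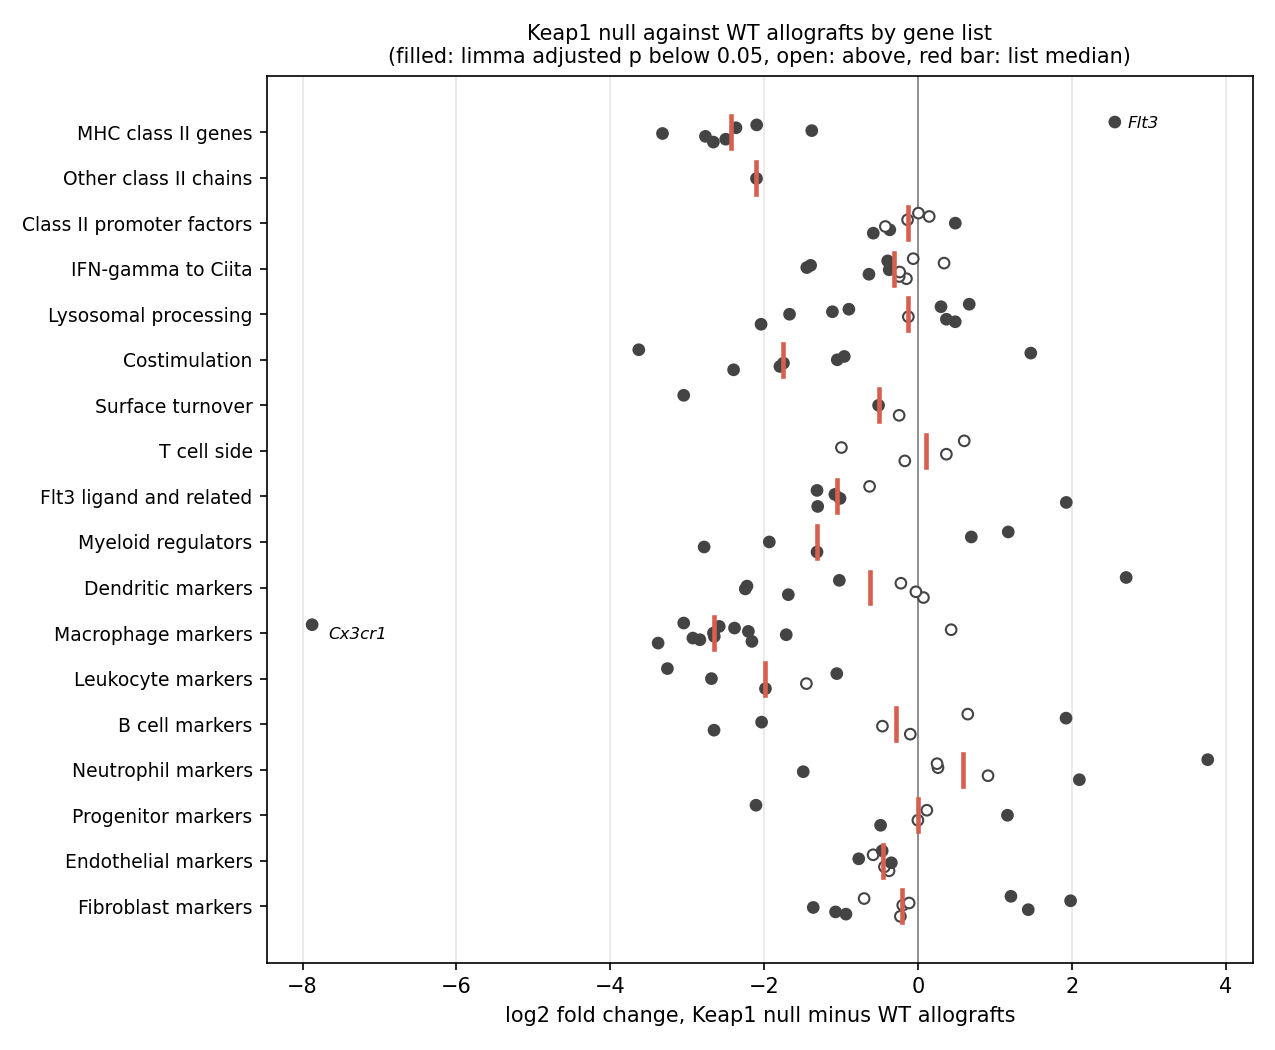
Log2 fold change in Keap1 null against WT allografts (horizontal axis) of each tested gene in 18 lists, filled where limma's adjusted p was below the threshold of 0.05, with the median of each list as a red bar. The class II genes other than Flt3, the costimulation genes and the macrophage and leukocyte markers lie mostly left of 0, whereas the promoter factors of class II and the T cell genes lie around it.

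B cells, which also carry class II, were represented by 6 tested markers, of which 2 were lower and 1 was higher in the Keap1 null than in the WT allografts, with a median of -0.28. Cd79b, a chain of the B cell receptor, was 4.1-fold lower (adjusted p = 0.000997) and Ms4a1, which encodes CD20, at least 1.57-fold lower (adjusted p = 0.00363, and 0.378 with normexp). Blnk, an adaptor of the B cell receptor, was 3.79-fold higher (adjusted p = 9.6e-05), and it was bright in dishes too, with 3.67 and 3.56 in Keap1 null and 0.82 and 0.79 in WT. With Blnk in it, the summed B cell level was 20.6 and 21.2 in Keap1 null and 5.19 and 6.22 in WT allografts, the reverse of the order of Cd79b and Ms4a1.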

How the data were processed

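Total RNA of 4 groups (500 ng per labelling, per the labels) was hybridised to 8 one-colour Agilent arrays. The deposited intensity values were written by Agilent Feature Extraction 10.7.3.1, with background and spatial trend subtracted, per the file headers, and arrays not scaled to each other. The authors' deposited value table holds the same intensity within 0.496%, so it is linear, uncentred and unscaled.

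Values are log2 of the processed intensity minus the array's 75th percentile, without control spots or outlier spots. A probe was tested where 1 or more groups had it well above background on their 2 arrays (30358 of 41174). Names came from RefSeq accessions (GRCm38.p6 table, names only, since the headers name mm9): 26690 probes received 1 of 18217 symbols and 14484 none. A gene is its brightest tested probe. One limma 3.58.1 fit (R 4.3.3) of 4 group means over 22922 targets gave 5 comparisons, called below 0.05 after Benjamini-Hochberg adjustment, and was tested on simulated data. Folds written "at least" take as the dim side, on each array, the dim probe or the faintest probe well above background, whichever is brighter.

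The genes and lists were chosen with earlier results of these data known. Named genes are all members, Keap1, Nfe2l2, up to 4 called genes with the largest change in allografts per list (up to 2 of the brightest where none was called) and the 5 nearest in pattern. Jak2, Pdcd1lg2, Ctsl, Lamp1, Lamp2, Ctsb, Ifng, Zbtb46, Xcr1, Clec10a and Mertk were added after their values were seen. Replicate numbers of the labels match the 2 slides of the file headers. Same-numbered arrays of different groups deviated together, with correlations of 0.246 to 0.428 over 22904 targets. Alternatives were other scalings, background models, filters, probe rules and fits, and leaving out each array. The mean signal was not used here, so normexp (offset 50) ran on the median signal, an alternative chosen after seeing the files. 1 item is not reported here.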

Additional observations from a re-analysis of the deposited data

Results flagged for a closer look

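The results below are listed because the allograft minus dish difference was unequal in the 2 lines, by limma's interaction term (Keap1 null minus WT, log2, adjusted over 22922 targets, of which 17% were lower and 15.8% higher). Of the presentation genes, H2-Aa had -2.004 (adjusted p = 0.00556), H2-Ab1 -2.41 (0.000917), H2-DMa -2.87 (0.000376), H2-DMb1 -2.10 (0.00029), H2-Oa -1.41 (0.0203), Cd74 -3.20 (0.00131) and Ciita -2.40 (0.0115). H2-Oa was tested only through the WT allografts, so the direction of its value was set largely by the filter. Flt3 had 3.03 (adjusted p = 0.000683). Keap1 had -0.83 (adjusted p = 0.0475) and Nfe2l2 0.54 (adjusted p = 0.0356).

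No group had enough arrays for a search for single outlying arrays.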

How the results depend on the processing

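With 2 arrays per group, precision limits every value, and 4 of the 8 tested genes lay at background in dishes. In allografts the count of 7 lower genes held, at 6 or 7, under every alternative run except the filter on probes above background on all arrays, and the 1 higher gene held under all of them. With that filter only 4 genes could be tested, and the counts became 3 lower in allografts, 4 higher against dish in Keap1 null, 4 higher in WT and 3 lower for the interaction. In dishes the lower count of 1 became 2 with quantile normalization and 3 with the median of each array, and ran from 1 to 2 when single arrays were left out. The higher count of 0 became 1 with that filter, with the replicate block, with a trended and robust spread, and ran from 0 to 1 when single arrays were left out. In each of these the added higher gene was Cd74.

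Direction turned for H2-DMa in dishes (-0.052 with quantile normalization, -0.053 with the array median), H2-DMa in Keap1 null allografts against dishes (-0.22 and -0.26), Flt3 in WT allografts against dishes (-0.15 and -0.13) and H2-Oa in dishes (-0.13 with the array median, -0.11 with normexp). It also turned for the dish median of the genes (0.10 with the unscaled table, 0.014 with the mean of probes) and for H2-Ab1 in dishes (0.036 with the unscaled table). With single arrays left out, the dish values ran from -0.16 to 0.21 for H2-Oa, -0.13 to 0.73 for Ciita, -0.33 to 0.15 for H2-Ab1 and -0.064 to 0.28 for H2-DMa, and the allograft value of Cd3e from -0.016 to 0.75. Of these, only H2-DMa in Keap1 null and Flt3 in WT, allograft against dish, had been called, and the cause was not tested.

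The array median moved the median of all targets to -0.84 for Keap1 null and -1.04 for WT allografts against dishes and to -0.21 between the lines in dishes, so higher and lower calls stood at 5066 and 13467 in Keap1 null (8207 and 6668 with the 75th percentile), 5003 and 14298 in WT (8217 and 7383), and 1828 and 3070 in dishes (2602 and 2241). Quantile normalization gave 6779 and 8463 in Keap1 null, with a shift of -0.16. The unscaled table gave 2262 and 5147 between the lines in allografts (4688 and 4887), 2002 and 618 in dishes, and 9342 and 2560 in WT. Over the class II genes 661 recomputed values kept direction and call and 14 turned. Of those that did not turn, 8 gained and 9 lost a call. Among the 14 that turned, calls also ended for H2-DMa in Keap1 null and Flt3 in WT, allograft against dish. This held with quantile normalization (limma adjusted p = 0.241 and 0.364) and with the array median (0.204 and 0.484). The replicate block changed the calls of Cd74 in dishes (adjusted p = 0.00725) and of Cd3e and Lag3 in allografts (0.0221 and 0.0452) and of no other gene recomputed. A slide block was not run apart from it, since slide and replicate number are the same.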

Other observations

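Other cell type markers that could travel with a tumour moved less evenly between Keap1 null and WT allografts. Over all targets 20.5% were higher and 21.3% lower in this comparison. Of 6 tested neutrophil markers 2 were higher and 1 was lower, with S100a8, an alarmin of neutrophils, 4.27-fold higher (limma adjusted p = 0.00022), Camp higher (adjusted p = 0.0115, and 0.0648 without WT allograft replicate 2) at unequal levels of -3.99 and -6.42 in the Keap1 null allografts, against WT allografts not well above background, and Csf3r, the G-CSF receptor, 2.82-fold lower (adjusted p = 0.00224). Of 5 tested early progenitor markers, the other cells known to carry Flt3, 1 was higher (Hlf, 2.23-fold, adjusted p = 2e-04) and 2 were lower (Cd48, 4.31-fold, adjusted p = 0.00119, and Cd34, 1.4-fold, adjusted p = 0.0176). However, 4 of these 5, Cd34, Gata2, Hlf and Meis1, were well above background on all 8 arrays, dishes included. Cd34 had 5.02 and 5.01 in Keap1 null dishes and 3.83 and 3.87 in WT dishes. Cd48 was well above background in allografts only. Which cells gave the signals of these progenitor markers in the tumours was not tested. Of 6 endothelial markers 3 were lower, Tek by 1.71-fold, Tie1 by 1.38-fold and Kdr by 1.27-fold (adjusted p = 0.0124, 0.0245 and 0.0435). These 3 endothelial calls and that of Cd34 each ended without at least 1 allograft array, with adjusted p up to 0.0615 for Tek, 0.113 for Tie1, 0.16 for Kdr and 0.0773 for Cd34. Of 10 fibroblast markers 3 were higher and 3 lower, with Dcn, which encodes decorin, 3.94-fold higher (adjusted p = 2.81e-05) and Pdgfrb 2.57-fold lower (adjusted p = 0.00015).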
